A study of Homo sapiens with 34 samples.

Results

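The clustered histone genes are the genes for the core histones H2A, H2B, H3 and H4 and the linker histone H1 that lie together in the genome and carry the older symbols HIST1H, HIST2H, HIST3H and HIST4H. Taking every gene whose name starts with 1 of these 4 prefixes gave 71 of the 31975 genes in the table. Of these, 56 belong to HIST1, 11 to HIST2, 3 to HIST3 and 1 to HIST4. By protein family, 7 encode or resemble H1, 16 H2A, 23 H2B, 11 H3 and 14 H4, and 10 of the 71 are pseudogenes. The RNA came from 34 established human B-cell lymphoma lines, 1 library per line, for which the labels name a pathology and no treatment. There were 11 lines of mantle cell lymphoma (MCL), 14 of diffuse large B-cell lymphoma (DLBCL) of the germinal centre B-cell (GCB) kind, 6 of DLBCL of the activated B-cell (ABC) kind and 3 of Burkitt lymphoma (BL). With 1 library per line, the p-values given here measure the spread between lines. In bulk RNA of this kind, fewer cells that copy their DNA and less histone RNA per such cell cannot be told apart.

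The libraries fell into 2 types. ZNF593, a gene used here only as a marker of library type, had 0 reads in 9 libraries, called the second type, and 444 to 6561 reads in the other 25, called the first type. The second type held 8 of the 14 GCB DLBCL lines (DB, DOHH-2, Karpas422, NU-DHL-1, OCI-Ly1, OCI-Ly7, SU-DHL-6 and WSU-DLCL2) and 1 ABC DLBCL line (NU-DUL-1), so library type and pathology are confounded unless 1 type is taken at a time. First-type libraries held 22574732 to 164896293 reads and the second-type GCB libraries 2547498 to 4842336. The labels mark 30 lines as re-analysed from an earlier deposit, and 4 carry no such mark: the BL line Daudi and the MCL lines HBL-2, MAVER-1 and UPN1. Among first-type lines SP-49 and SP-53, both MCL, were more alike than any other pair, with a correlation of 0.78 over gene-centred levels of 18432 genes and 0.52 for the next pair. The B-cell genes MS4A1, CD79A, CD79B and PAX5 were high in all 34 lines, at levels of at least 10.60. Of the markers of other cells, CD2 had no more than 68 reads, CD14 67 and COL1A2 298 in any line. The T-cell gene CD3E reached 9.94 in REC-1, and the fibroblast gene COL1A1 reached 11.06 in Z-138, 10.34 in Toledo and 9.51 in OCI-Ly3; their part in the results was not tested. CCND1, the cyclin activated by translocation in MCL, lay between 12.59 and 17.35 in MCL lines and at 10.43 or below in the others.

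Most clustered histone genes are replication-dependent: they are transcribed mainly in S phase, when new DNA must be packaged, and their short intronless mRNAs end in a conserved stem-loop in place of a poly(A) tail. A library made by poly(A) selection therefore reads them poorly, apart from a few members that also make polyadenylated transcripts. H2A and H2B pair into dimers, H3 and H4 into tetramers, and together they form the nucleosome core around which DNA winds. H1 binds the linker DNA where it enters and leaves the nucleosome. Many lymphomas carry mutations in H1 genes, of which HIST1H1C and HIST1H1E are the best known.

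The promoters of these genes share short elements that are much rarer in promoters at large. The 250 bases before the annotated start are printed for 4 members to which the results return: HIST1H2BK and HIST1H1C, the members with the most reads; HIST3H2BB, which was detected in some lines and near 0 in others; and HIST1H2BM, which lies at the end of a run of genes with almost no reads in 3 MCL lines. The sequences are from RefSeq (GRCh38.p14), 5′ to 3′ on the gene's strand, at chr6:27146859-27147108 on the minus strand, chr6:26056471-26056720 on the minus strand, chr1:228457853-228458102 on the plus strand and chr6:27814772-27815021 on the plus strand. Capitals mark the CCAAT box (CCAAT or ATTGG), the TATA motif (TATAAA or TTTATA) and the octamer (ATTTGCAT or ATGCAAAT).
HIST1H2BK: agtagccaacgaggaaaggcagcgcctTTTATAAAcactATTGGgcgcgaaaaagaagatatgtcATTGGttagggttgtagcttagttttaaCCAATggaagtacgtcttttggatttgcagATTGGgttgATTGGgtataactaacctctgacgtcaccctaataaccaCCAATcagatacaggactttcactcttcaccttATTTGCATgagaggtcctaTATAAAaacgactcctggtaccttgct
HIST1H1C: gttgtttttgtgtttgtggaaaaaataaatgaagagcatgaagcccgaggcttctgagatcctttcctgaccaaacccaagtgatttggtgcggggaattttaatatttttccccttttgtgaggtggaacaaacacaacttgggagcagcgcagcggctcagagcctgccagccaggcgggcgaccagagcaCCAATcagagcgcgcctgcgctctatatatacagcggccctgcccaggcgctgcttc
HIST3H2BB: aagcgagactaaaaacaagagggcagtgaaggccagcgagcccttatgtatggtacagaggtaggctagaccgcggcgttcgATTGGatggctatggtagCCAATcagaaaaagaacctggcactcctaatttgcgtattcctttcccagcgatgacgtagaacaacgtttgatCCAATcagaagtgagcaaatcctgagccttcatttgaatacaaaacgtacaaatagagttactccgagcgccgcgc
HIST1H2BM: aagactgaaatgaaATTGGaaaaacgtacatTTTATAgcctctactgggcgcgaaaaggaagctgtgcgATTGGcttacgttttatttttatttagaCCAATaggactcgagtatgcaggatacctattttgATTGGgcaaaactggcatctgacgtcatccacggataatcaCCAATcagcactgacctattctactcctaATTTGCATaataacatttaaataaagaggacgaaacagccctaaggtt
HIST1H2BK holds 6 CCAAT boxes, 3 TATA matches of which a pair overlap, and 1 octamer. HIST1H2BM holds 5 CCAAT boxes, 1 TATA match and 1 octamer. HIST3H2BB holds 3 CCAAT boxes and HIST1H1C 1, and neither holds these TATA letters or the octamer. The HIST3H2BB stretch spans the whole gap to its divergently transcribed neighbour HIST3H2A.

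Over windows of 300 bases (250 before to 50 after the start) that RefSeq gave for 56 members, CCAAT or its reverse was found in 48 members, or 85.7%, against 35.7% of all 27305 windows. It was in every matched window of H1, H2A, H2B and H3 members and in 3 of the 11 H4 windows. TATAAA was in 37 of the 56 windows, or 66.1%, against 11.95% of all windows. The octamer was in 22 of the 56, or 39.3%, against 1.80% of all windows, and each of the 22 was an H2A (9 of 14) or an H2B (13 of 17). These matches describe letters in these windows and no binding was measured.

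Levels are given on the deposited log2 scale, on which 0 reads stand at 4.55 and 1 read at 4.70 to 5.63, depending on how deeply the library was read. Whole reads could be recovered from these values, and sums over members are given as reads per 1000000 reads of the library (RPM). In first-type lines the 71 members together took from 28.2 RPM in Daudi to 855 in OCI-Ly3, with a median of 170. Among MCL lines the sum ran from 49.4 in UPN1 through a median of 230 to 849 in Jeko-1. Among first-type GCB lines it ran from 77.2 in SU-DHL-4 through 137 to 227 in Toledo. The ABC lines spanned 88.2 in HBL-1 to 855 in OCI-Ly3 around a median of 121, and the BL lines had 28.2 in Daudi, 136 in Raji and 184 in Ramos. The ranges of the 4 pathologies overlapped, and 1 line in each of MCL and ABC DLBCL stood far above the rest of its pathology.

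**Figure D1:**
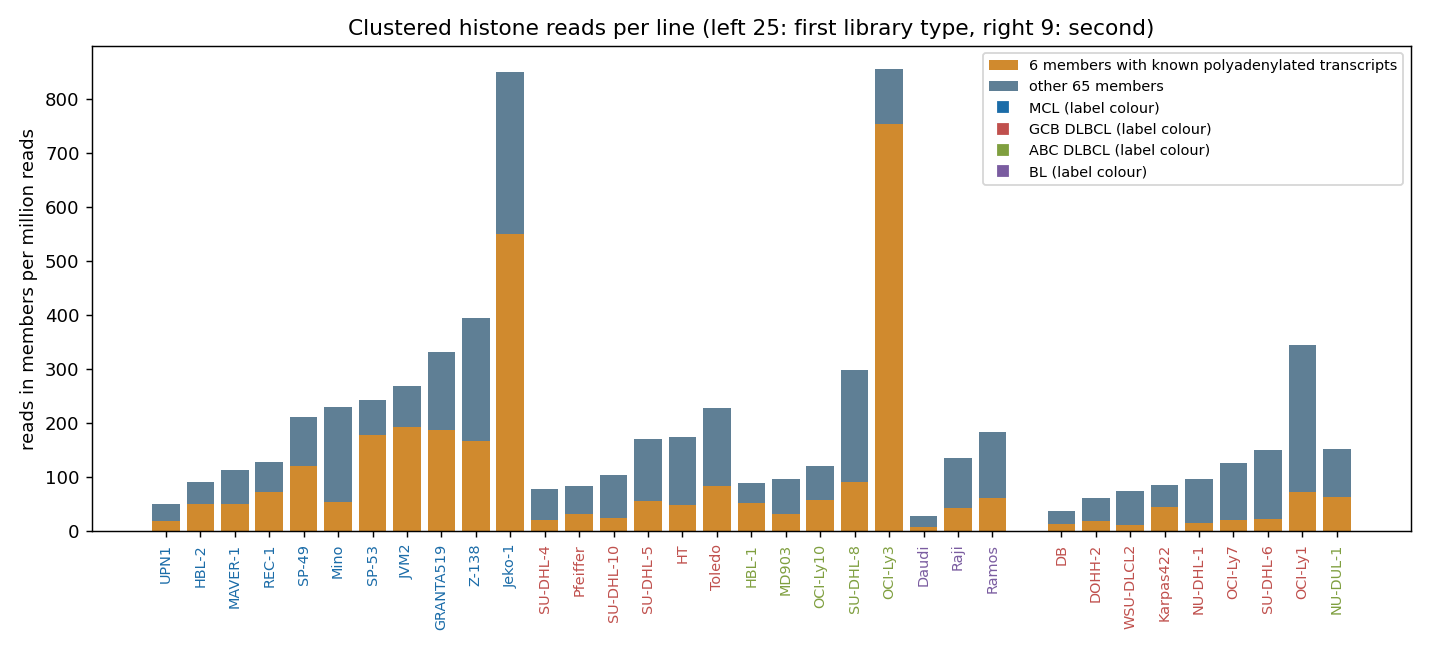
Stacked bars give the reads of the clustered histone genes per 1000000 reads of the library (vertical axis) in each of the 34 lines, in orange for the 6 polyadenylated members and in grey-blue for the other 65, with label colours for pathology and the 9 second-type lines at the right. Jeko-1 (849) and OCI-Ly3 (855) stand highest and Daudi (28.2) lowest.

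A few members took a large and variable part of this sum. The 6 members known to make polyadenylated transcripts, HIST1H1C, HIST1H2AC, HIST1H2BC, HIST1H2BD, HIST1H2BK and HIST2H2BE, took 23.0% of the members' reads in Mino and 73.6% in SP-53 among MCL lines (median 56.2%). In first-type GCB lines their share was 22.7 to 37.7% with a median of 30.2%, in ABC lines 30.5 to 88.0% with a median of 47.0%, and in BL lines 28.9 to 32.8%. The 88.0% was OCI-Ly3, and over all 25 first-type lines the median share was 39.5%. Without these 6 genes the other members took 20.1 to 299 RPM in first-type lines, with a median of 80.8. Averaged over first-type lines, each line counting equally, H2B took 47.0% of members' reads, H1 20.8%, H2A 15.7%, H4 8.83% and H3 7.68%. Of the members' RPM averaged over those lines, in which Jeko-1 and OCI-Ly3 weigh most, the HIST1 cluster made up 86.7%, HIST2 11.3%, HIST3 1.19% and HIST4 0.743%, and the pseudogenes 0.566%.

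Of the 71 members, 59 passed the low-level filter in the first-type libraries (at least 3 lines more than 1 log2 unit above the lowest value). The 12 that did not were HIST1H1A, HIST1H1T, HIST1H2AM, HIST2H2AA3, HIST2H2AA4, HIST2H2BA, HIST3H2BA and 5 others, all pseudogenes. HIST1H1T encodes the testis-specific linker histone, and it reached at most 8 reads in any first-type line. HIST2H2AA3 and HIST2H2AA4 are near-identical copies, with at most 37 and 11 reads, and reads that fit both may not have been counted. The same uncertainty holds to some degree for all members, whose coding sequences resemble each other closely, and for members that overlap other genes, since the counting step and its use of strand are not given in the sources used here.

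The linker histone HIST1H1C (ENSG00000187837, H1-2, chr6:26055740-26056470) had the most reads of all members on average, 43.6 RPM in first-type lines, and also 1 of the widest ranges. Among MCL lines its level was lowest in UPN1 at 7.73 (393 reads), had a median of 10.33 and was highest in Jeko-1 at 13.50 (15347 reads). First-type GCB lines ran from 7.42 in SU-DHL-4 through 8.43 to 9.85 in SU-DHL-5. The ABC lines were at 8.19 in MD903, 9.33 in SU-DHL-8, 9.40 in OCI-Ly10, 10.56 in HBL-1 and 13.37 in OCI-Ly3, where it had 40513 reads. The BL lines were at 6.41 in Daudi, 8.34 in Raji and 9.23 in Ramos. MCL lines thus reached higher than any first-type GCB or BL line, but their lower end overlapped both. HIST1H1E (H1-4, chr6:26156329-26157115), another somatic linker histone, had 6.54 RPM on average. Per kilobase of annotated length HIST1H1C had 59.7 RPM and HIST1H1E 8.31. Gene coordinates here are those of RefSeq on GRCh38.p14.

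Among the H2B genes, HIST1H2BK (H2BC12, chr6:27138293-27146858) came next to HIST1H1C with 40.1 RPM on average, and with 26.0 against 35.2 for HIST1H1C when OCI-Ly3 was left out. Its level ran from 8.32 in UPN1 through 10.34 to 12.53 in Jeko-1 among MCL lines, and from 8.09 through 8.79 to 9.94 among first-type GCB lines. In ABC lines it was 8.37 in HBL-1, 9.07 in MD903, 9.90 in OCI-Ly10, 10.39 in SU-DHL-8 and 13.99 in OCI-Ly3, and in BL lines 6.98 in Daudi, 9.81 in Raji and 9.91 in Ramos. OCI-Ly3 had 62317 HIST1H2BK reads, and HIST1H1C and HIST1H2BK together made up 72.9% of the members' reads in that line, against 45.3% in Jeko-1. HIST2H2BE, an H2B gene of the chromosome 1 cluster, averaged 11.6 RPM and HIST1H2BD 11.2, with MCL ranges of 6.94 to 11.78 and 6.49 to 10.73. HIST2H2BF averaged 7.93 and ran from 5.16 in UPN1 to 9.73 in Jeko-1 among MCL lines and up to 9.90 in Toledo among first-type GCB lines. HIST1H2BC varied less, from 5.66 through 7.24 to 8.40 in MCL lines and from 6.52 through 7.06 to 7.45 in first-type GCB lines.

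Some H2B genes were present in most lines and absent from others. HIST1H2BH (chr6:26251614-26252075) had 0 reads in HBL-2, SP-49, REC-1, MD903, Ramos, Daudi and SU-DHL-4 and reached 10.32 (2777 reads) in Mino. HIST1H2BG had 0 reads in OCI-Ly3 and SP-53 and 10.41 (1744 reads) in Jeko-1. The H3 gene HIST1H3B (H3C2), among the members with the largest SD between lines, had 0 reads in SP-53 and 1 in SP-49, against a level of 9.73 in Jeko-1. Of the H2A genes, HIST1H2AC had 10.4 RPM on average, or 20.0 per kilobase. Its level ran from 6.60 through 8.72 to 11.06 in MCL lines and from 6.64 through 7.31 to 8.10 in first-type GCB lines. It was 7.24, 7.81, 8.96, 9.28 and 10.95 in MD903, HBL-1, OCI-Ly10, SU-DHL-8 and OCI-Ly3. In BL lines it was 6.20, 7.73 and 7.86 in Daudi, Raji and Ramos.

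**Figure D2:**
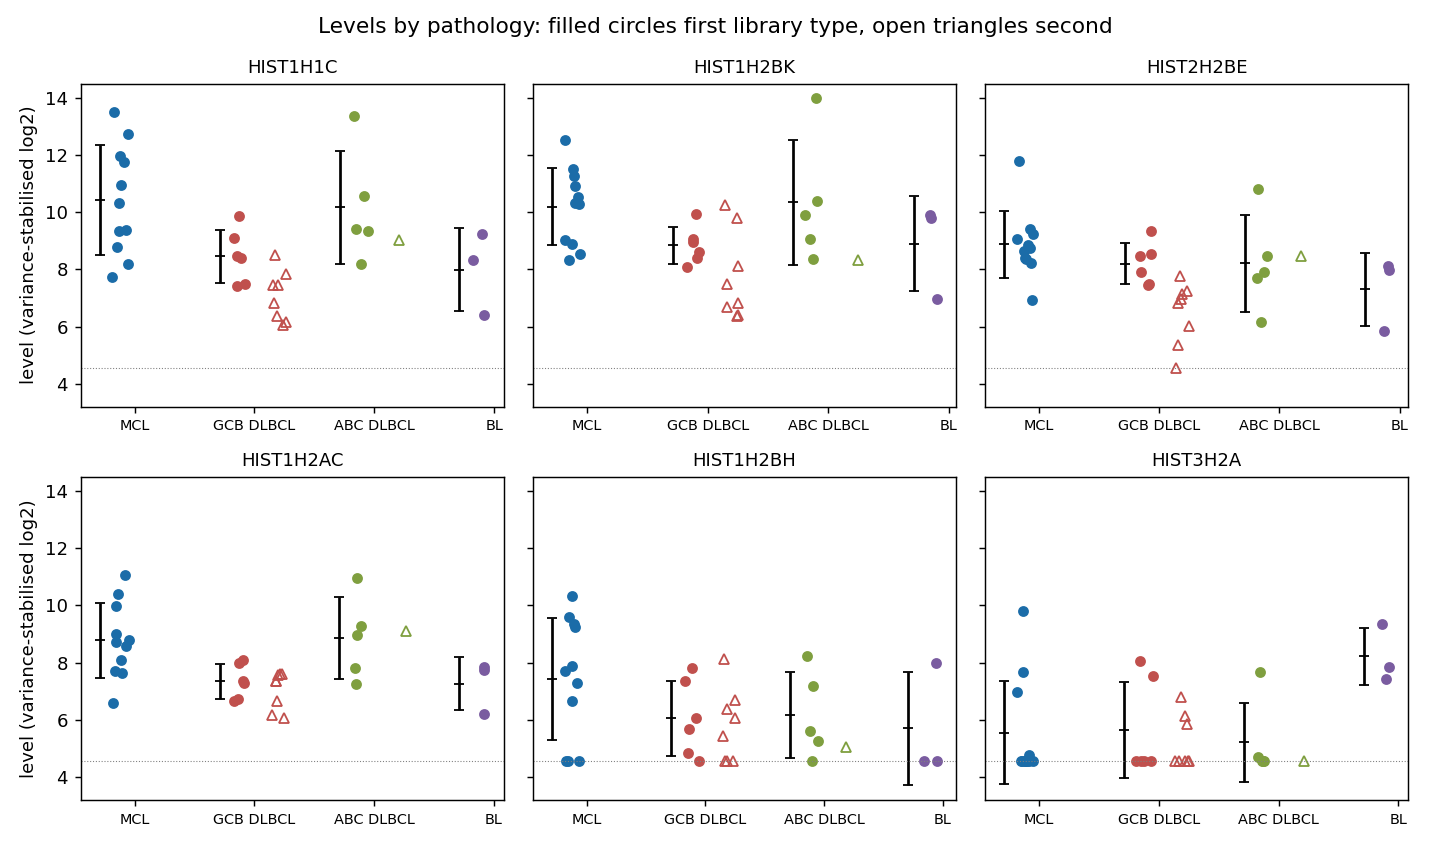
Level (log2 scale of the deposited table, vertical axis) of 6 named members by pathology, with filled circles for first-type and open triangles for second-type lines, bars for the first-type mean and SD, and a dotted line at 0 reads. For HIST1H1C, Jeko-1 at 13.50 and OCI-Ly3 at 13.37 lie above all other lines, while the pathologies overlap.

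Whether the lymphoma types differ in these genes was asked in the 25 first-type lines, with limma fitted over all genes and Benjamini-Hochberg adjustment. No member passed an adjusted p of 0.05 in any of the 6 comparisons, 0 of 59 in each. Over all 18432 genes tested, 3.41% were called between MCL and GCB DLBCL, 0.814% between MCL and ABC DLBCL, 2.18% between MCL and BL, 0.315% between ABC and GCB DLBCL, 0.157% between BL and GCB DLBCL and 0.656% between BL and ABC DLBCL. Members with an unadjusted p under 0.05 numbered 10, 1, 7, 1, 2 and 3 in that order, or 16.95, 1.69, 11.86, 1.69, 3.39 and 5.08% of the 59. Over all genes the shares were 17.84, 14.06, 15.67, 10.88, 8.45 and 13.09%, above the members' share each time. limma with voom on the recovered reads called 0 members in 5 of the comparisons and 1 between MCL and BL, HIST3H2A, at -7.57 with an adjusted p of 0.033. At the shares called over all genes by limma on the log2 values, few calls would fall among 59 members. The 0 called there therefore does not set the members apart from all genes.

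The members' median difference was close to that of all genes in the comparisons without BL and further from it in those with BL. It was 0.05 for MCL minus GCB DLBCL against 0.04 over all genes. With BL it was 0.39 against 0.09 for MCL minus BL, with 44 of 59 members positive. It was -0.18 against -0.07 for BL minus GCB DLBCL (15 positive) and -0.25 against -0.07 for BL minus ABC DLBCL (11 positive). Daudi, the lowest first-type line in members' reads and the shallowest, is 1 of the 3 BL lines. The 6 polyadenylated members had medians of 1.02 for MCL minus GCB DLBCL, 1.41 for MCL minus BL and 0.89 for ABC minus GCB DLBCL, with 6 of 6 differences positive in each. Their median was 0.08 for MCL minus ABC DLBCL with 3 of 6 positive, -0.31 for BL minus GCB DLBCL with 1 of 6, and -1.17 for BL minus ABC DLBCL with 0 of 6. HIST1H1C averaged 10.43 ± 1.91 (SD, n = 11) in MCL lines and 8.45 ± 0.94 (SD, n = 6) in GCB lines, a difference of 1.97 ± 0.81 (SE) with an adjusted p of 0.20 by limma. HIST1H2AC differed by 1.43 ± 0.57 with an adjusted p of 0.18 by limma, and HIST1H2BK by 1.35 ± 0.70 with 0.32. The range over MCL lines, from 7.73 to 13.50 for HIST1H1C, was wider than these differences. With the 4 lines that lack the re-analysis mark left out, 1 member was called between MCL and GCB DLBCL. It was HIST1H1C at 2.80 with an adjusted p of 0.043 by limma. Between MCL and ABC DLBCL 1 was called, HIST2H2AC at 1.51 with an adjusted p of 0.023 by limma. The MCL lines left out, HBL-2, MAVER-1 and UPN1, were the lowest of MCL in the members' summed reads. Leaving them out therefore raised the MCL mean of members that were low in them. The share called over all genes in this setting is not given here.

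Other genes of histone supply were read from 4 further lists of 53 genes. Of 17 genes for histone gene transcription and 3′ processing, 2 were called between MCL and GCB DLBCL, 1 in each direction. LSM11, a protein of the U7 snRNP that recognises histone pre-mRNA, was lower in MCL, at 8.63 ± 0.34 (SD, n = 11) against 9.46 ± 0.23 (SD, n = 6). CPSF3, the endonuclease that cuts the pre-mRNA, was higher in MCL, at 12.31 ± 0.49 against 11.36 ± 0.47. The differences were -0.83 ± 0.20 and 0.95 ± 0.23 (SE), each with an adjusted p of 0.025 by limma. LSM10, the partner of LSM11 in that particle, was higher in BL than in ABC DLBCL by 2.29 ± 0.54, with an adjusted p of 0.048 by limma. None of the 17 S-phase replication genes, 8 histone chaperones or 11 replication-independent histone variants was called between pathologies.

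Members were called inside MCL, along the mark of re-analysis. The 3 MCL lines without the re-analysis mark were the lowest of the 11 in the members' summed reads: 49.4 RPM in UPN1, 90.3 in HBL-2 and 113 in MAVER-1, against 127 in REC-1 to 849 in Jeko-1. Daudi, the only other unmarked line, was lowest of the BL lines and had the fewest reads of the first-type libraries. This order was seen in the sums, and the comparison per gene was then added on the same values. The direction of the members' differences is therefore not independent of that choice. The calls, shares and p-values of this comparison are descriptions. Of 56 members tested within MCL, 7 were called by limma at an adjusted p under 0.05 and all 7 were lower in the unmarked lines. Over all 16321 genes tested, 1.63% were called in either direction and 1.45% lower. Differences were negative for 49 of the 56 members, and their median was -0.95 against -0.04 over all genes. The 6 polyadenylated members had a median of -1.95, with 0 called and 5 at an unadjusted p under 0.05 by limma. The other 50 members tested had a median of -0.83, with 7 called and 17 at an unadjusted p under 0.05.

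The 4 linker histones tested had the lowest median difference of the families, -2.72, against -1.24 for H2B, -0.85 for H2A, -0.70 for H3 and -0.67 for H4. HIST1H1E had 15 reads in UPN1, 35 in HBL-2 and 49 in MAVER-1, against 292 in JVM2 to 1542 in Mino among the 8 marked lines. Its level was 5.52 ± 0.25 (SD, n = 3) against 8.78 ± 0.48 (SD, n = 8), a difference of -3.26 ± 0.38 (SE) with an adjusted p of 0.0070 by limma. The lines did not overlap, with 5.30 to 5.79 on one side and 8.19 to 9.51 on the other. HIST1H1B (H1-5), a linker histone of dividing cells, had 8, 38 and 38 reads in UPN1, HBL-2 and MAVER-1 and at least 89 in the marked lines. It differed by -2.43 ± 0.47 with an adjusted p of 0.030 by limma. HIST1H1C differed by -3.02 ± 0.82 and missed the threshold, with an adjusted p of 0.084 by limma. For all 4 H1 members tested, every unmarked line lay below every marked line on the log2 scale. For HIST1H1D this split does not hold in reads: the unmarked MAVER-1 had 36 and the marked REC-1 had 29.

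The H2B gene HIST2H2BF had 10 reads in UPN1, 58 in HBL-2 and 53 in MAVER-1 and 143 in JVM2 to 2099 in Z-138, a difference of -3.18 ± 0.49 with an adjusted p of 0.013 by limma. The H2A gene HIST2H2AB differed by -1.57 ± 0.31, the H3 gene HIST1H3I by -1.62 ± 0.34, and the H4 genes HIST1H4A and HIST1H4B by -1.40 ± 0.29 and -1.17 ± 0.24. The adjusted p values by limma were 0.031, 0.039, 0.036 and 0.035. HIST1H4B lies outside the rule for named genes and is given because it completes the 7. Reads of the H4 pair were 0 to 8 in the 3 unmarked lines, so those differences rest on few reads. In 16 of the 56 members all 3 unmarked lines lay below all 8 marked lines, and in 0 above, against 5.80% of all genes tested with the lower pattern.

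Genes of the other lists were not called in this comparison. The 17 S-phase genes had 0 called, 5 at an unadjusted p under 0.05 by limma, and a median difference of 0.24. None of the 8 chaperones (median 0.10) or 17 processing genes (median 0.27) was called either. The 11 histone variants, whose mRNAs are mostly polyadenylated, had a median of -1.10 with 0 called and 3 at an unadjusted p under 0.05. UPN1, HBL-2 and MAVER-1 had 76575868, 102968882 and 82446876 reads in all, within the 60083754 to 108776337 of the marked lines. The count rested on each of the 3 lines: it was 0 without HBL-2, 0 without MAVER-1 and 1 without UPN1. It was 4 with each library centred on its median and 2 with voom. What else differed between marked and unmarked libraries is not given in the sources used here, and the mark and the lines that carry it cannot be told apart.

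Several chromosome 6 members fell to near 0 in single lines in runs of neighbours. Taking the 40 members with a median of at least 50 reads in first-type lines, 65 of the 1000 pairs of gene and line had 3 reads or fewer. These fell in 22 genes and 12 lines, and 13 lines had none. By line they numbered 12 in Daudi, 10 in SP-53, 9 each in REC-1 and SP-49, 5 each in HBL-2 and OCI-Ly3, 4 each in MD903 and Ramos, 2 each in MAVER-1, SU-DHL-4 and UPN1, and 1 in Toledo. The limit of 3 reads does not scale with depth: at the median share, the near-zero genes would have had 12.2 to 43.2 reads in Daudi, the shallowest first-type library, against 67.0 to 434 in SP-53. Runs were picked after these values were seen and are descriptions.

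The clearest run held 5 adjacent genes: HIST1H2BL, HIST1H2AI, HIST1H3H, HIST1H2AJ and HIST1H2BM, at chr6:27807479-27815489, or 8.01 kb. Their summed reads were 2 in REC-1, 2 in SP-49 and 1 in SP-53. The other 22 first-type lines had 43 in Daudi to 2711, with a median of 710.5, and the other 8 MCL lines had 265 in UPN1 to 2228. The group directly beyond, HIST1H4J to HIST1H2BN, kept 511 reads in REC-1, 1392 in SP-49 and 692 in SP-53. SP-49 and SP-53 are the pair of libraries most alike, and whether they are independent lines was not tested. Without SP-49 the run was near 0 in REC-1 and SP-53. The promoter of HIST1H2BM printed above is the reference sequence, and the promoter in these lines was not read.

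A second run lay at chr6:26250142-26273412, or 23.27 kb, from HIST1H3F to HIST1H2BI. The members of the run with enough reads to be judged were all near 0 in MD903 and in Ramos, 4 in each. In Daudi the run was 5 genes long and began at HIST1H1D, over 39.2 kb. Another run lay in SP-53, with 0, 0, 0 and 3 reads in HIST1H2BF, HIST1H4E, HIST1H2BG and HIST1H2AE. SP-49 had 27, 4, 3 and 6 reads in these genes. HIST1H2BH and HIST1H3F were each near 0 in 8 lines. HIST1H4A and HIST1H4B were both near 0 in HBL-2, MAVER-1 and Daudi. Around the HIST1 genes, from TRIM38 to ZKSCAN8 (chr6:25962802-28159460), 21 genes that are not histones have a median of at least 50 reads. They lie outside the runs described above, so no such gene was read within a run. Of the 21, 3 were at 3 reads or fewer in REC-1, 3 in MD903, 2 in Ramos, 3 in Daudi and 0 in SP-49 and in SP-53. The 3 in REC-1 were BTN2A2, BTN2A3P and HCG11, the first a butyrophilin gene. BTN2A1, BTN3A1 and BTN3A3 beside them had 5, 13 and 26 reads in REC-1, against medians of 1167, 1395 and 1194. HMGN4 and ABT1, between these genes and the REC-1 histone run, kept 2473 and 4752 reads. Whether DNA was lost at these places was not tested.

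**Figure D3:**
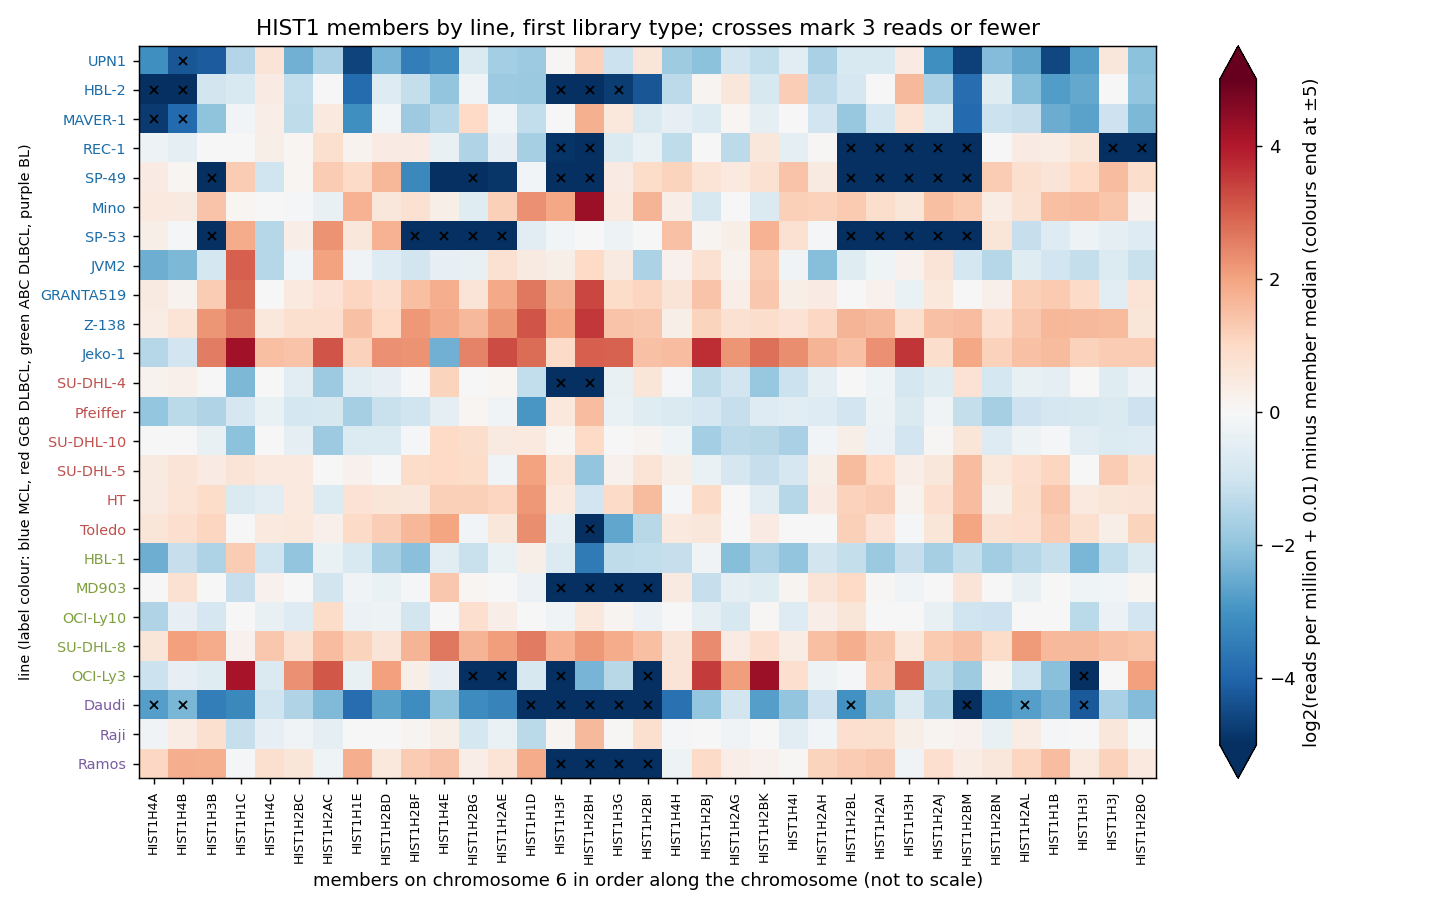
Each cell gives log2(RPM + 0.01) of a chromosome 6 member minus its median over the 25 first-type lines, with members in genomic order (horizontal axis, not to scale), lines on the vertical axis and crosses at 3 reads or fewer. Dark blue blocks mark HIST1H2BL to HIST1H2BM in REC-1, SP-49 and SP-53 and HIST1H3F to HIST1H2BI in MD903, Ramos and Daudi. A further block in SP-53 runs from HIST1H2BF to HIST1H2AE.

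HIST3H2A and HIST3H2BB, a divergent H2A and H2B pair 229 bases apart on chromosome 1, were detected in some lines and near 0 in others. HIST3H2A (H2AC25, chr1:228457364-228457873) had 100 to 1272 reads in 9 first-type lines and 0 or 1 in the other 16. It had 100 reads in Daudi, 271 in Ramos and 1272 in Raji, so that 3 of 3 BL lines had it. It had 171 in REC-1, 426 in MAVER-1 and 910 in JVM2 of the 11 MCL lines, 341 in Toledo and 478 in Pfeiffer of the 6 GCB lines, and 391 in SU-DHL-8 of the 5 ABC lines. HIST3H2BB had 20 to 160 reads in 8 of these 9 lines and 1 in Daudi, and 0 or 1 in the 16 others. No first-type line lay between 1 and 100 HIST3H2A reads, and the second-type lines, which are shallower in GCB DLBCL, had 0 to 7. Level differences by limma were 2.58 ± 1.09 for BL minus GCB DLBCL and 3.01 ± 1.13 for BL minus ABC DLBCL, with adjusted p values of 0.51 and 0.24. For MCL minus BL the difference was -2.67 with an adjusted p of 0.18 by limma, and it was called at -3.09 with an adjusted p of 0.042 by limma when JVM2 was left out.

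**Figure D4:**
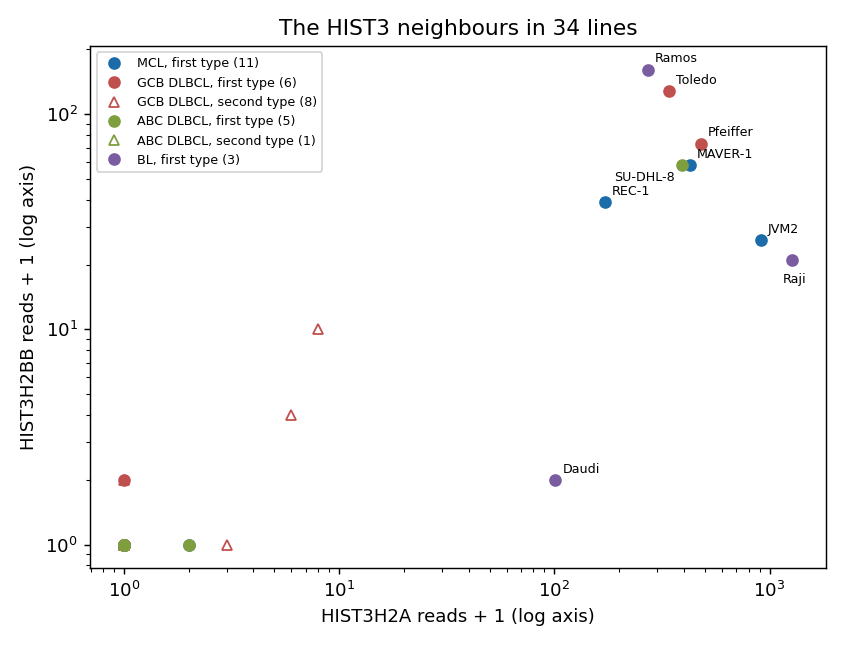
Reads plus 1 of HIST3H2A (horizontal) and HIST3H2BB (vertical), both on log axes, in each of the 34 lines, coloured by pathology, with open triangles for second-type libraries. Of the first-type lines, 9 have 100 or more HIST3H2A reads and the other 16 have 0 or 1.

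Neighbouring H2A and H2B genes in general varied together. Of 10 such pairs at most 400 bases apart, 9 had both genes above the filter. Over the 25 first-type lines their levels correlated with a median Pearson r of 0.82, from 0.38 for HIST2H2AC and HIST2H2BE to 0.93 for HIST1H2AI and HIST1H2BL. The median over 195 combinations of an H2A with an H2B that are not neighbours was 0.40. These values share libraries and depth and are a description. HIST1H2AH and HIST1H2BK, of which the second is polyadenylated, correlated at 0.41. Per kilobase, the H2B gene had the higher mean in 4 of 6 pairs that could be compared, although for HIST1H2AG and HIST1H2BJ, 1 of the 4, it was the higher in 11 of 25 lines. At the other end, HIST1H2BN exceeded HIST1H2AK in 25 of 25 lines (9.34 against 0.657 RPM per kilobase on average).

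The library types were set side by side where the pathology is the same. Within GCB DLBCL, 8 second-type lines were compared with 6 first-type lines. Of 54 members tested, 8 were called by limma, 1 higher and 7 lower in the second type, or 14.81%. Over all 19736 genes tested 17.1% were called, 1974 higher and 1393 lower (7.06% lower). The share called in either direction was thus near the background, but the members' calls were mostly lower. The members' median difference was -0.47 against 0.12 over all genes, and 10 of the 54 differences were positive. HIST2H2BF fell from 8.69 ± 1.06 (SD, n = 6) to 5.78 ± 0.92 (SD, n = 8), a difference of -2.91 ± 0.52 with an adjusted p of 0.0013 by limma. Its reads were 0 to 14 in the second-type lines against 184 to 2161. HIST1H2BG, HIST1H2BM, HIST2H2BE, HIST2H2AB, HIST1H1B and HIST1H4A also fell, by 1.65, 1.77, 1.71, 1.51, 1.92 and 1.43 on the log2 scale. HIST1H4I rose by 1.43 ± 0.33 with an adjusted p of 0.0077 by limma, from 5.53 to 6.17 in the first type to 6.32 to 8.30 in the second. HIST1H4I lies inside the annotated span of HIST1H2BK. Without OCI-Ly1, the second-type line with the most members' reads, 15 members were called, 14 lower and 1 higher. OCI-Ly1 was left out after the values were seen, so the added lower calls are not independent of that choice. With voom 11 were called, 7 lower and 4 higher, the last being HIST1H4I, HIST1H4C, HIST1H3E and HIST4H4. The shares called over all genes in these settings are not given here, so these counts are descriptions.

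H4 made up more of the members' reads in second-type libraries. Its share was 21.3 to 54.1% with a median of 32.7% in second-type GCB lines, against 8.81 to 17.05% with a median of 10.5% in the first type, with no overlap. The H1 share moved the other way, at 0.816 to 9.45% against 10.3 to 22.3%. HIST1H4C, singled out after its values were seen, was the member with the most reads in NU-DHL-1, SU-DHL-6 and WSU-DLCL2, and it differed by 1.78 ± 0.62 with an adjusted p of 0.062 by limma, and by 2.61 with 0.0080 by limma with voom. NU-DUL-1, the ABC line of second type, had an H4 share of 17.1% and an H1 share of 17.01%. Of the further lists, 3 of 10 variants tested were called lower in the second type: H3F3A, H2AFZ and H2AFX, by 2.19, 2.38 and 1.51. Of the 17 S-phase genes 3 were called lower, with TYMS at 10.02 against 13.10 on average. Of the 8 chaperones 2 were called lower, and of the 17 processing genes 1 was called higher and 1 lower. The shares called were 30, 17.65, 25 and 11.76% in that order, against 17.1% of all genes tested.

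The members lower in the second type within GCB DLBCL and those lower in the unmarked lines within MCL overlapped, and the 2 comparisons share no library. HIST1H1B, HIST1H4A, HIST2H2AB and HIST2H2BF were in both, or 4 of 7 (57.1%) of each list. Over all genes tested, 1393 and 237 were called lower in these comparisons and 143 were in both, or 10.27% and 60.34% of the lists, so an overlap of this kind is not limited to the histone genes. The second-type GCB libraries were shallower than all first-type GCB libraries, whereas the depths of the unmarked MCL lines lay inside the range of the marked ones. What the 2 comparisons have in common was not tested.

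**Figure D5:**
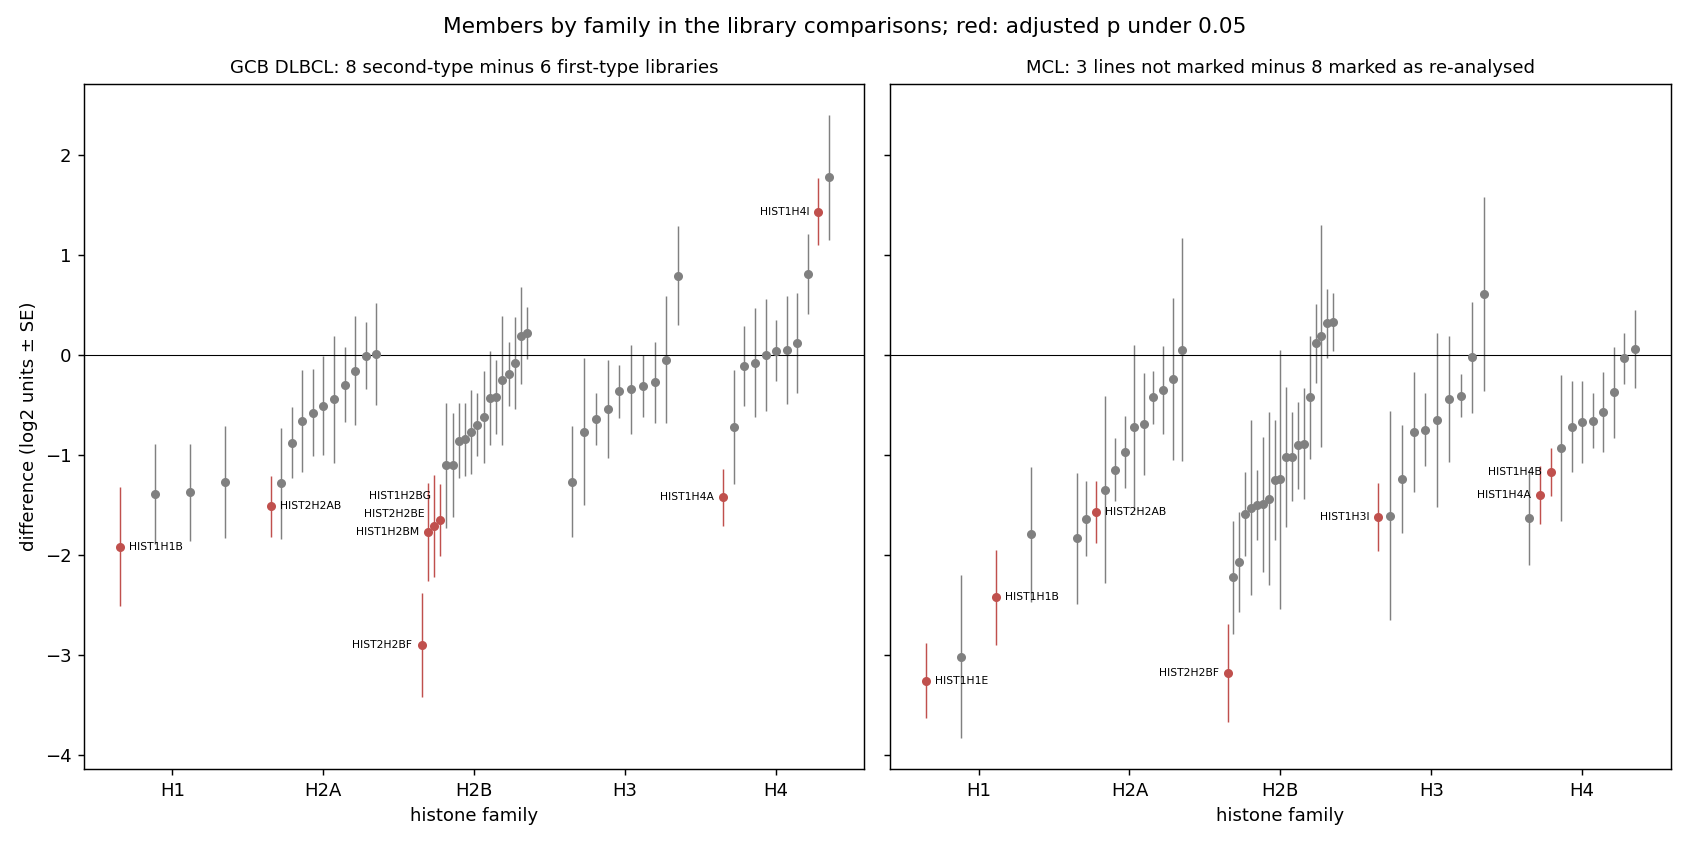
Difference in level with its SE (vertical axis, log2 units) for each tested member, by histone family, between second-type and first-type libraries in GCB DLBCL (left) and between lines without and with the re-analysis mark in MCL (right). Red points passed an adjusted p of 0.05. Members called lower in both are HIST1H1B, HIST1H4A, HIST2H2AB and HIST2H2BF.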

How the data were processed

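RNA was sequenced from 34 lymphoma cell lines, 1 library each, and the authors deposited 1 table of variance-stabilised log2 values, 1 column per line. Per the submitters' processing notes the tools named are STAR 2.5.3a, R 3.6.1 and DESeq2 1.26.0 with GRCh38. The counter, annotation and strand setting are not given in the sources used here. Whole reads were recovered from the deposited log2 values by inverting the transformation at each library's step, and 100% of values came out whole within 0.05 of a read. Lines were grouped by the labelled pathology, and library type by ZNF593 above the lowest value or at it. Differences were fitted with limma 3.58.1 in R 4.3.3 on the log2 values over all genes with at least 3 lines more than 1 above the lowest value, with an intensity trend and Benjamini-Hochberg adjustment at 0.05. Summaries used Python 3.11.15, pandas 2.3.3 and NumPy 2.4.6. The fit was tested on simulated data. Named members were the called members with the 6 highest and 6 lowest differences in each comparison, the 6 with most reads, the 6 with the largest SD and the 6 polyadenylated ones. Of the other lists, genes passing the threshold are named, at most 4 each. The members and lists were chosen with earlier results of these data known, and the comparison by re-analysis mark and the left-out lines were added after seeing the data. Alternatives were another filter, centring, voom, all lines, marked lines only and lines left out. One of the marker genes read is not reported here.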

Additional observations from a re-analysis of the deposited data

Results flagged for a closer look

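In 57 groups of 4 to 10 lines examined for a line far from the rest, 8 were flagged, and chance flags about 1 in 20 groups. Among the first-type ABC DLBCL lines, OCI-Ly3 had 855 reads of the members per 1000000 reads, far above the next line. SU-DHL-8 had the highest HIST1H1E level, 8.83, and the highest HIST3H2A level, 7.67, with no other of these lines above 4.70. In first-type GCB DLBCL, Pfeiffer had the lowest HIST1H4A level, 5.45. In second-type GCB DLBCL, OCI-Ly1 stood highest in 4 of the values: HIST1H1B at 8.49, HIST1H3B at 8.96, HIST2H2AB at 5.80 and all members together at 345 reads per 1000000 reads.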

How the results depend on the processing

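No paired analysis was possible because the labels give no replicate numbers and each line has 1 library. The count of members called was 0 in all 6 pathology comparisons of the first-type lines. With all 34 lines and pathology only, 9 members were called between MCL and GCB DLBCL, and HIST1H4I turned from 0.82 to -0.00185; this setting mixes the library types. With only the marked lines, 1 was called between MCL and GCB DLBCL and 1 between MCL and ABC DLBCL. The unmarked MCL lines left out there are the lowest of MCL in members' reads. Leaving out each ABC or BL line in turn kept the count at 0. Between MCL and BL, 1 was called with voom and 1 without JVM2. By re-analysis mark, the 7 called became 4 with centring, 2 with voom, and 0 to 6 when 1 of HBL-2, MAVER-1, UPN1 or Jeko-1 was left out. By library type, the 8 called became 6 to 11 under the other filters and voom, and 15 without OCI-Ly1, the highest of the second-type lines. Over all comparisons and alternatives, 77 counts stayed within 1.5 times and 11 did not, and the cause was not tested. Of those for single members, 230 kept their direction and side of the threshold, 27 fell below it, 8 rose above it and 1 turned. Depth limits the second type, whose libraries hold few reads of most members.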
